A study of Mus musculus with 4 samples.

Results

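Focal adhesion adaptors are the proteins inside the cell that join integrins, the receptors for extracellular matrix, to actin filaments and to signalling enzymes. The 8 genes described here are Ilk, Lims1, Pxn, Ptk2, Bcar1, Vcl, Actn1 and Zyx, all part of the machinery around kindlin-2. They were taken by the gene name that the deposited tables give to each region. That rule found 7 regions of 7 genes among 5727 in the Kindlin-2 table and 8 regions of 8 genes among 28445 in the Rela table, with 1 region per gene. The 8 genes lie on 8 different chromosomes, so no 2 of the regions are neighbours.

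Chromatin accessibility was measured by ATAC-seq, in which a transposase cuts open chromatin and tags the fragments for sequencing. Kindlin-2 K.O. fibroblasts were set against Kindlin-2 floxed fibroblasts, which carry the conditional alleles undeleted, both from kidney. Rela K.O. fibroblasts were set against Rela wt fibroblasts, both of the 3T3 embryo fibroblast line. All 4 cultures were grown in the same medium with calf serum to passages 15 to 20, and the sources used here do not say how the knockouts were made or whether a culture was 1 clone. The deposited tables hold 1 column of values per genotype, so no spread between replicates is known and no test between genotypes could be made. In bulk cells, fewer cells with an open region and a region less open in every cell cannot be told apart.

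The values are a background-corrected signal, normalized within each table and rounded by the authors, and levels of the 2 tables are not compared. Regions of the mitochondrial genome, 2 in all, brought the total signal of the Kindlin-2 table to 827408 in Kindlin-2 K.O. and 1655317 in floxed cells, while the Rela table held none, and the part of that difference in the results was not tested. Nuclear signal summed to 114217 in Kindlin-2 K.O. and 134996 in floxed cells, and to 1458609 in Rela K.O. and 1386832 in wild-type cells. Of 16 fibroblast marker genes, the Kindlin-2 table held regions for 1 (Fn1, 12 in the knockout and 26 in floxed cells) and the Rela table for 11 (summed signal 652 in the knockout and 533 in wild-type cells). Of 10 epithelial, 7 leukocyte and 5 endothelial markers, the Kindlin-2 table held 0, 1 (Ptprc, 27 in the knockout and 10 in floxed cells) and 0. The Rela table held 3 epithelial markers (summed 52 in the knockout and 121 in wild-type cells), 3 leukocyte markers (summed 73 in the knockout and 90 in wild-type cells) and 0 endothelial ones, and the part of other cells in the results was not tested. No region was assigned to Fermt2, the kindlin-2 gene, and the 1 region at the Rela promoter held 27 in Rela K.O. and 21 in wild-type cells. Intervals in brackets are exact 95% intervals of a ratio for counting error alone, from the counts that the values imply. They do not cover the difference between cultures.

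Kindlin-2 binds the tails of integrin beta subunits and is needed for integrin activation. It recruits the integrin-linked kinase ILK, which forms a complex with PINCH-1, the product of Lims1, and with parvins, and it also binds paxillin. Paxillin and p130Cas, the product of Bcar1, are docking proteins phosphorylated by focal adhesion kinase, the product of Ptk2, and by SRC. Vinculin and alpha-actinin-1 (Vcl and Actn1) connect the adhesion to actin filaments, and zyxin is a LIM protein of adhesions and stress fibres. NF-kB, whose p65 subunit is encoded by Rela, is a transcription factor of inflammatory and stress responses.

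Of the 8 genes, 6 matched the RefSeq promoter windows of build GRCm38.p6 (the assembly of mm10), which run from 250 bp before to 50 bp after a start. The windows of 4 genes that overlap regions described here in both tables are shown. A Lims1 window at chr10:58323297-58323596 overlaps both too and is not printed. The printed windows are Actn1 at chr12:80260314-80260613 (minus strand), Vcl at chr14:20929148-20929447 (plus), Zyx at chr6:42349578-42349877 (plus) and Ilk at chr7:105736340-105736639 (plus). Each is printed 5′ to 3′, with matches to the searched motifs in capitals.
Actn1: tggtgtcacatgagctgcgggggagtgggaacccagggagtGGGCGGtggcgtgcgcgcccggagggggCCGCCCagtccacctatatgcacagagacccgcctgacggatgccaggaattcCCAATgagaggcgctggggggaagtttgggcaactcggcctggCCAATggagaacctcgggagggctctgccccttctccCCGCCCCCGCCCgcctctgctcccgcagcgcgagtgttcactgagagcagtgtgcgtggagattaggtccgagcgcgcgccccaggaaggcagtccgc
Vcl: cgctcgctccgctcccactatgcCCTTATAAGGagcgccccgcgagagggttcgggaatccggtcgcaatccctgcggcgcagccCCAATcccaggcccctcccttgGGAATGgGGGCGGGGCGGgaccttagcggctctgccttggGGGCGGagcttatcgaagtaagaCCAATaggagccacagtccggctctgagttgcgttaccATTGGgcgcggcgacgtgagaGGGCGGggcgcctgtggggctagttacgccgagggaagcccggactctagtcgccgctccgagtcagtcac
Zyx: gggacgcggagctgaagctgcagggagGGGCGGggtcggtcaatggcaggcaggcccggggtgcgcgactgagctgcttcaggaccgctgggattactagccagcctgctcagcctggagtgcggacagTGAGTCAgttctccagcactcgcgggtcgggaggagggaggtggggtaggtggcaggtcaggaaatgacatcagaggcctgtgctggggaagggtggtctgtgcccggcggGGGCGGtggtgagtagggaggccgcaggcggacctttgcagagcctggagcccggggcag
Ilk: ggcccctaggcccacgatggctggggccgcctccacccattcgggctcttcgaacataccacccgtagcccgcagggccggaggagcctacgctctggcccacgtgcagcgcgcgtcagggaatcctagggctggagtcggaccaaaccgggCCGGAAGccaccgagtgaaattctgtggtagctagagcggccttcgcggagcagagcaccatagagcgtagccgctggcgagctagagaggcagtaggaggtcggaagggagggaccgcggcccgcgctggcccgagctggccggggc

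The motifs searched, on both strands, were the AP-1 consensus TGANTCA, the TEAD core GGAATG, the ETS core CCGGAAG, the YY1 core AAGATGG, the GC box GGGCGG, the CCAAT box CCAAT, the TATA box TATAAA, the SRF CArG box and the NF-kB site. The Vcl window held a CArG box with its first base at -227 from the start, a motif found in 1.63% of all 32851 windows, and a TEAD core at -143, found in 14.7%. It also held 3 CCAAT boxes and 4 GC boxes, 2 of which share 1 base. The Zyx window held 1 AP-1 match at -121, found in 7.81% of windows, and 2 GC boxes. The Ilk window, the one of 2 whose start is nearest to that in the tables, held 1 ETS core, found in 8.86% of windows. The other Ilk window, at chr7:105736475-105736774, held 3 GC boxes, 1 ETS core and 2 overlapping NF-kB matches, on opposite strands at -48 and -47, found in 4.51% of windows, which lie past the end of the Kindlin-2 region of Ilk. The Actn1 window held 4 GC boxes and 2 CCAAT boxes, motifs found in 35.7% and 37.4% of windows. None of the 4 printed windows held a TATA box or a YY1 core. All 4 were rich in G and C, with 66.7% to 69.0%, against a median of 52.7% over all windows. A match of letters does not show that a factor binds there.

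The regions sat at the starts of their genes in 6 of 7 cases in the Kindlin-2 table and 7 of 8 in the Rela table, where the centre lay within 445 bp of the start that the tables give. Bcar1 was the exception. Its Kindlin-2 region ended at -2026 bp from the start and its Rela region, 2588 bp wide, ran from -4556 to -1968 bp, so neither touched a RefSeq window of Bcar1. Each of the 7 Kindlin-2 regions lay wholly inside the Rela region of the same gene. Of all Kindlin-2 regions 71.8% lay wholly inside some Rela region, and of those at promoters (centre within 2500 bp of a start) 81.8%. The Rela regions were 1.79 (Vcl) to 9.11 (Bcar1) times as wide. The Rela region of Pxn, on chromosome 5 at 115506428 to 115506724, lay at a start that the tables place 14706 bp inside the gene as RefSeq draws it. No Rela region lay at the RefSeq start of Pxn, and the next one upstream was 157482 bp away. For Ptk2 the 2 starts lie 629 bp apart. Its Kindlin-2 region ran from 482 to 671 bp past the RefSeq start, and its Rela region from 19 to 773 bp past it.

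**Figure D1:**
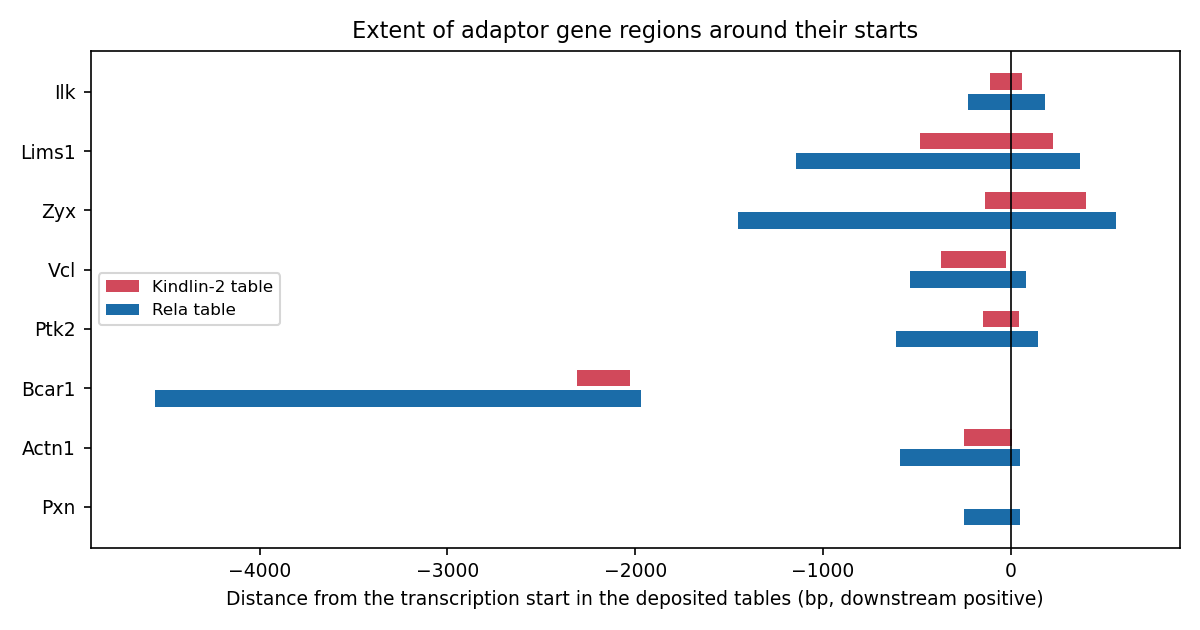
Extent of each adaptor gene region along the distance from the transcription start given in the deposited tables (bp, downstream positive), in red for the Kindlin-2 table and in blue for the Rela table. Every red bar lies within the blue bar of the same gene, and the Bcar1 bars end at -2026 bp (Kindlin-2) and -1968 bp (Rela).

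The first comparison asked how accessibility at these genes differs between fibroblasts without Kindlin-2 and floxed fibroblasts. The Actn1 promoter was 2.63 times as high in the knockout, and it was the 1 of 7 regions higher by a factor of 2 or more. None of the 7 was lower by that factor, and those of Lims1, Zyx, Vcl, Ptk2 and Bcar1 had ratios between 0.632 and 0.771, with Zyx turning to the higher side after loess or quantile scaling. The Ilk promoter had the same value in both genotypes as deposited. By the same limit, 16.2% of all regions were higher and 9.27% lower, and 9.06% of promoter regions were higher and 10.6% lower, so counts of 1 of 7 and 0 of 7 are near the background. The 2-fold limit was applied to log2((knockout + 1)/(control + 1)), called the log2 ratio here.

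Ilk and Lims1 encode members of the complex that kindlin-2 recruits. As deposited, Lims1 was lower in the knockout and Ilk level, while after quantile or loess scaling Ilk had log2 ratios of -0.34 or -0.27 and Lims1 -0.14 or -0.13. The Ilk promoter (ENSMUSG00000030890) on chromosome 7 (105736479 to 105736654) held 10 in the knockout and 10 in floxed cells, a ratio with a counting interval of 0.361 to 3.25. Per kb of region its signal was 57.1 in both genotypes, rank 6 of the 7 genes. The Lims1 promoter (ENSMUSG00000019920) on chromosome 10 (58322982 to 58323690) held 48 in the knockout and 72 in floxed cells, a ratio of 0.667 (0.441 to 1.002). Per kb it had 67.8 in the knockout and 102 in floxed cells, and its interval just reaches 1.

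Among the docking proteins and kinases, both measured regions were lower in the knockout by less than 2-fold. The Ptk2 promoter (ENSMUSG00000022607) on chromosome 15 (73423149 to 73423338) held 12 in the knockout and 16 in floxed cells (ratio 0.750, 0.302 to 1.79). The Bcar1 region (ENSMUSG00000031955) on chromosome 8 (111745835 to 111746119) held 12 in the knockout and 19 in floxed cells (ratio 0.632, 0.266 to 1.47). These values rest on 12 to 14 counts each, with the knockout column taken at 1 count per unit, and the intervals span 1 widely. No region carried the name Pxn in the Kindlin-2 table.

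The actin linkers went both ways. The Actn1 promoter (ENSMUSG00000015143) on chromosome 12 (80260364 to 80260621) held 21 in the knockout and 8 in floxed cells, a ratio of 2.63 (1.004 to 7.79). Per kb it had 81.7 in the knockout, rank 2 of the 7 genes, and 31.1 in floxed cells, rank 7. The Vcl promoter (ENSMUSG00000021823) on chromosome 14 (20929061 to 20929406) held 27 in the knockout and 35 in floxed cells (ratio 0.771, 0.429 to 1.36). The Zyx promoter (ENSMUSG00000029860) on chromosome 6 (42349491 to 42350031) held 83 in the knockout and 113 in floxed cells (ratio 0.735, 0.535 to 1.01). Per kb, Zyx was the strongest of the 7 in both genotypes, with a signal of 154 in the knockout and 209 in floxed cells.

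**Figure D2:**
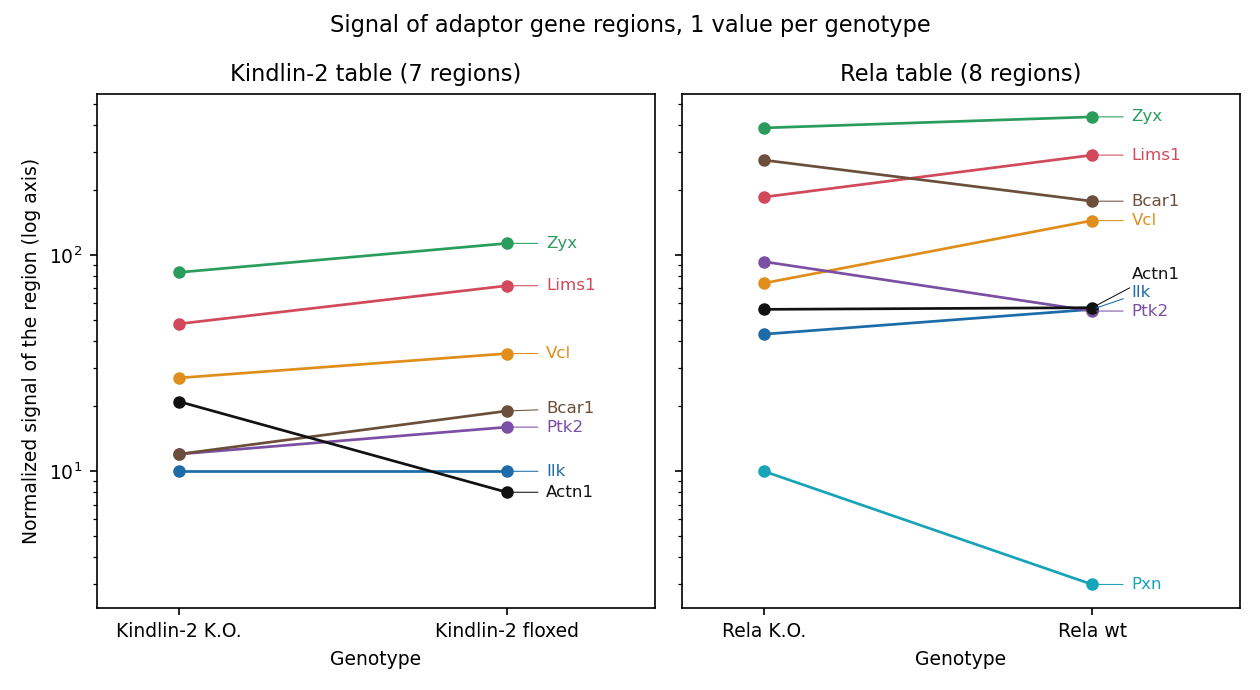
Normalized signal (log axis) of each adaptor gene region in the knockout and its control, 1 value per genotype joined by a line, in the Kindlin-2 table (7 regions) and the Rela table (8 regions). The knockout side is the higher one for Actn1 alone in the Kindlin-2 table, and for Pxn, Ptk2 and Bcar1 in the Rela table. Regions differ in width, so levels of different genes are not comparable here.

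The counting interval lay wholly above 1 for Actn1 alone, 1 of 7, against 8.12% of all regions and 4.04% of promoter regions. It lay wholly below 1 for 0 of 7, against 10.2% and 12.8%. The knockout column did not show a clear scale of whole counts and was taken at 1 count per unit. With the weakly fitted scale, 3 of 7 intervals excluded 1, those of Actn1 (1.09 to 7.31), Lims1 (0.474 to 0.942) and Zyx (0.565 to 0.964). That scale implies more counts in the knockout and so narrower intervals. The share of all regions was not computed for it, so the 3 of 7 has no background to be read against.

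Other quantities moved with the Actn1 value. Regions of chromosome 12 had a median log2 ratio of 0.55, and the 50 regions on each side of Actn1 had 0.32. The next region 84525 bp away on one side held 22 in the knockout and 12 in floxed cells, and the one 156670 bp away on the other side held 10 in the knockout and 4 in floxed cells. Neither was assigned to a gene. The Actn1 log2 ratio of 1.29 was 0.742 with each chromosome centred on its median and 0.968 with neighbouring regions centred. Of the 14 regions next to the 7 members, 2 were past 2-fold upward and 1 downward, against 16.2% and 9.27% of all regions of the Kindlin-2 table. Whether the Actn1 difference belongs to the promoter or to its surroundings was not tested.

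Across the Kindlin-2 table the log2 ratio drifted with signal level. When regions were split by mean signal into 4 classes of equal size, the strongest class held Zyx, Lims1 and Vcl. Its median log2 ratio was -0.36, and these genes had -0.44 (Zyx), -0.58 (Lims1) and -0.36 (Vcl). In the weakest class, which held Ilk (0.00), it was 0.68. The class next to the weakest had a median of 0.09 and held Actn1 (1.29), Ptk2 (-0.39) and Bcar1 (-0.62), and after loess scaling these had 1.26 (Actn1), -0.40 (Ptk2) and -0.60 (Bcar1). Actn1 alone lay above the median of its class, and Vcl was about level with its own. Over the 7 members the median log2 ratio was -0.39, with 5 below 0, 1 at 0 and 1 above, against -0.15 over promoter regions, 56.3% of which were below 0, and 0.00 over all regions. After loess or quantile scaling, which remove such a drift, the Zyx log2 ratio was 0.14 or 0.20, Lims1 had -0.13 or -0.14 and Vcl -0.08 or -0.14. Among all regions 450 were then higher and 506 lower past 2-fold (loess), or 573 higher and 603 lower (quantile), against 925 higher and 531 lower as deposited.

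**Figure D3:**
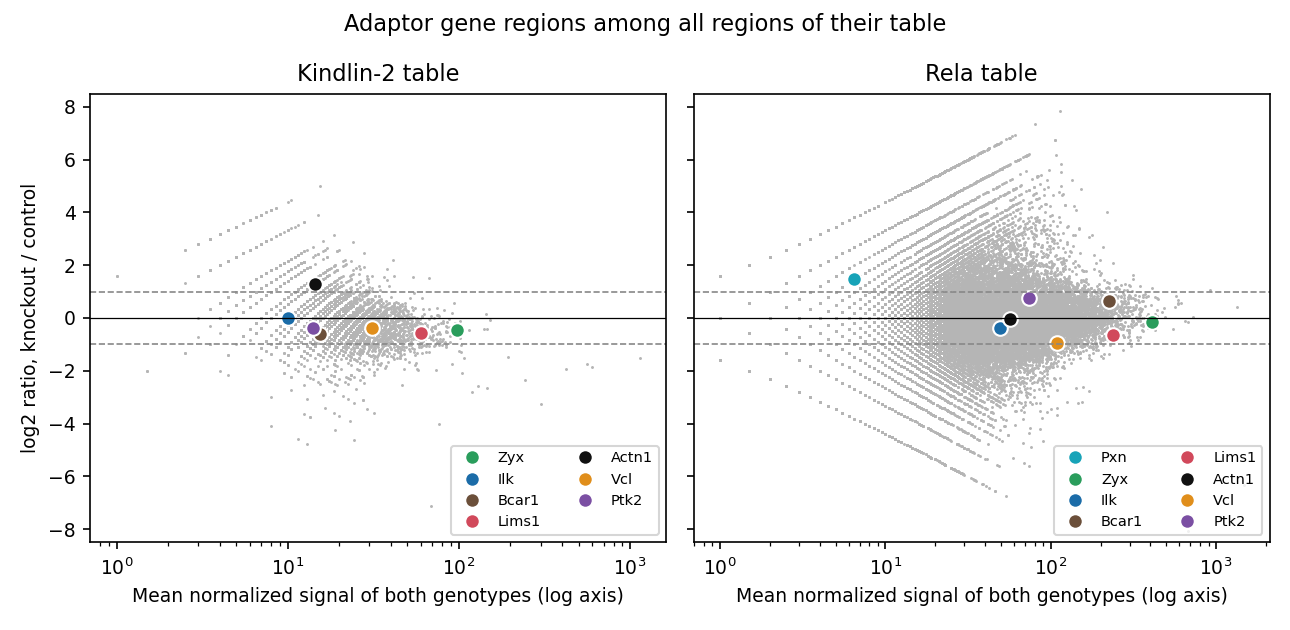
Log2 ratio of knockout over control against the mean normalized signal of both genotypes (log axis), grey for all regions of a table and coloured for adaptor genes, with dashed lines at 2-fold. Regions with a mean above 2000 (3 in the Kindlin-2 table and 1 in the Rela table) are not drawn. Actn1 (1.29) and Pxn (1.46) are the coloured points beyond the dashed lines.

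The second comparison asked how accessibility at these genes differs between Rela K.O. and Rela wt 3T3 fibroblasts. The Pxn region was higher in the knockout, 10 against 3, and was the 1 of 8 regions past the limit upward. None of the 8 passed it downward, though the Vcl promoter, with 74 in the knockout and 144 in wild-type cells, lay just inside the limit. The Lims1 promoter was also lower in the knockout, with a ratio of 0.640, and the Ptk2 and Bcar1 regions were higher, with ratios of 1.69 and 1.55. Of all regions in the Rela table, 22.4% were higher and 21.0% lower by this limit, and of promoter regions 13.0% were higher and 13.1% lower. Counts of 1 of 8 and 0 of 8 are no higher than this background.

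The ILK and PINCH-1 genes were both lower in the knockout. The Ilk promoter on chromosome 7 (105736364 to 105736772) held 43 in the knockout and 56 in wild-type cells, a ratio of 0.768 (0.518 to 1.11). The Lims1 promoter on chromosome 10 (58322322 to 58323834) held 185 in the knockout and 289 in wild-type cells, a ratio of 0.640 (0.538 to 0.761). The Ilk interval spans 1, while that of Lims1 lies below it.

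The docking proteins and the kinase were all higher in the knockout as deposited, Bcar1 no longer so with neighbouring regions centred. The Pxn region (ENSMUSG00000029528) does not lie at the RefSeq start of the gene. It held 10 in the knockout and 3 in wild-type cells, a ratio of 3.33 with a wide interval (1.13 to 16.5). Per kb it was the weakest of the 8 in both genotypes, with 33.8 in the knockout and 10.1 in wild-type cells, and the values rest on 11 implied counts in the knockout and 4 in wild-type cells. The Ptk2 promoter on chromosome 15 (73423047 to 73423801) held 93 in the knockout and 55 in wild-type cells, a ratio of 1.69 (1.24 to 2.29). The Bcar1 region on chromosome 8 (111745777 to 111748365) held 274 in the knockout and 177 in wild-type cells, a ratio of 1.55 (1.31 to 1.84). Per kb, Ptk2 had 123 in the knockout, rank 2 of the 8 genes, and 72.9 in wild-type cells, rank 6. Bcar1, the widest region of the 8, had 106 per kb in the knockout and 68.4 in wild-type cells.

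The actin linkers differed from each other. The Vcl promoter on chromosome 14 (20928898 to 20929516) held 74 in the knockout and 144 in wild-type cells, a ratio of 0.514 (0.391 to 0.669). Per kb its signal was 120 in the knockout and 233 in wild-type cells, rank 4 of the 8 genes in the knockout and 1 in wild-type cells. The Actn1 promoter on chromosome 12 (80260324 to 80260961) held 56 in the knockout and 57 in wild-type cells (ratio 0.982, 0.695 to 1.40), nearly the same value in both. The Zyx promoter on chromosome 6 (42348179 to 42350191) held 386 in the knockout and 434 in wild-type cells (ratio 0.889, 0.784 to 1.01), and per kb 192 in the knockout and 216 in wild-type cells.

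**Figure D4:**
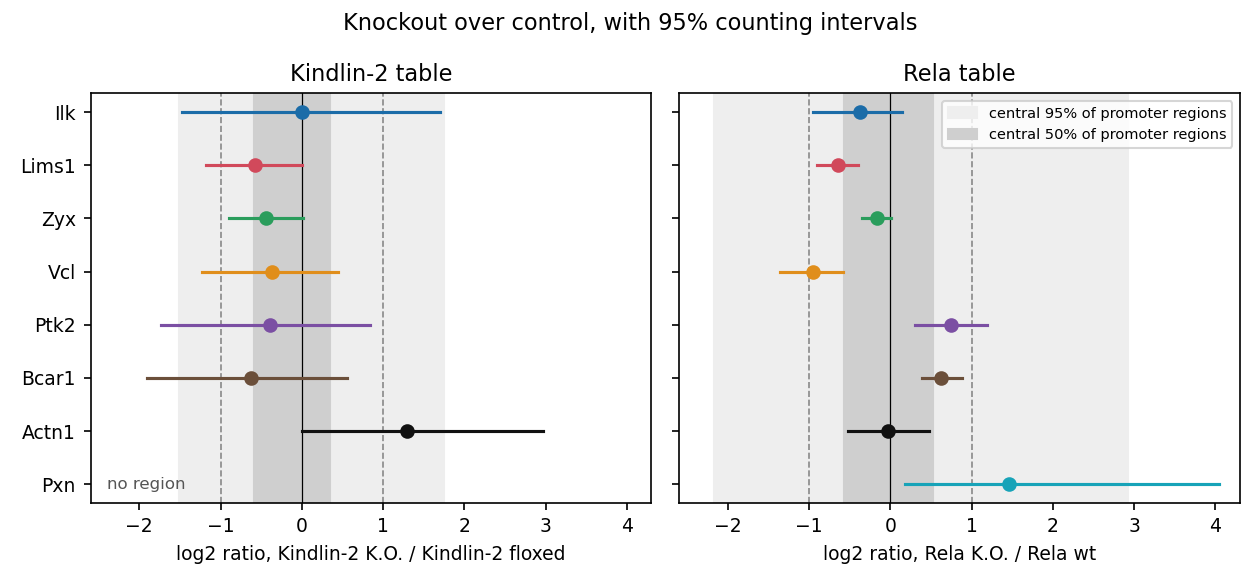
Log2 ratio of knockout over control for each adaptor gene region (points) with its 95% counting interval (bars), over the central 50% and 95% of all promoter regions of the table (grey), with dashed lines at 2-fold. Actn1 (1.29) and Pxn (1.46) lie beyond 2-fold, and every point lies within the central 95% of promoter regions.

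Counting intervals lay wholly above 1 for 3 of 8 regions (Pxn, Ptk2 and Bcar1), against 30.6% of all regions and 26.5% of promoter regions. They lay wholly below 1 for 2 of 8 (Lims1 and Vcl), against 29.6% and 26.3%. The median log2 ratio of the 8 members was -0.10, with 5 below 0 and 3 above, against -0.03 over promoter regions and 0.00 over all regions. The members nearest to the log2 limit of 1 in size were Vcl (-0.95) and Ptk2 (0.75) inside it and Pxn (1.46) outside it. With a pseudocount of 5 Pxn had 0.91, inside the limit, and after quantile scaling Vcl had -1.04, outside it.

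For Bcar1, Lims1, Ptk2 and Vcl the median of the 50 regions on each side had the same sign as the gene, though the single nearest region on one side went the other way for Bcar1 (-0.13), Ptk2 (-0.37) and Vcl (0.46). Regions of chromosome 8 had a median log2 ratio of 0.61, beside 0.63 at Bcar1, and regions of chromosome 10 had -0.58, beside -0.64 at Lims1. The 50 regions on each side of Ptk2 had a median of 0.62, beside 0.75 at Ptk2, while chromosome 15 as a whole had 0.03. Centred on neighbouring regions, the log2 ratios were -0.12 for Bcar1, -0.17 for Lims1 and 0.13 for Ptk2. Centred on chromosomes they were 0.02 for Bcar1, -0.06 for Lims1 and 0.71 for Ptk2. Vcl, on a chromosome with a median of -0.30, had -0.67 under either centring, and Pxn had 1.53 with chromosomes centred and 1.86 with neighbours centred. Of the 16 regions next to the 8 members, 0 were past 2-fold upward and 5 downward, against 22.4% and 21.0% of all regions of the Rela table. The 5 included one 28555 bp from Pxn with 11 in the knockout and 42 in wild-type cells. The part of chromosome-wide differences in these results was not tested.

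**Figure D5:**
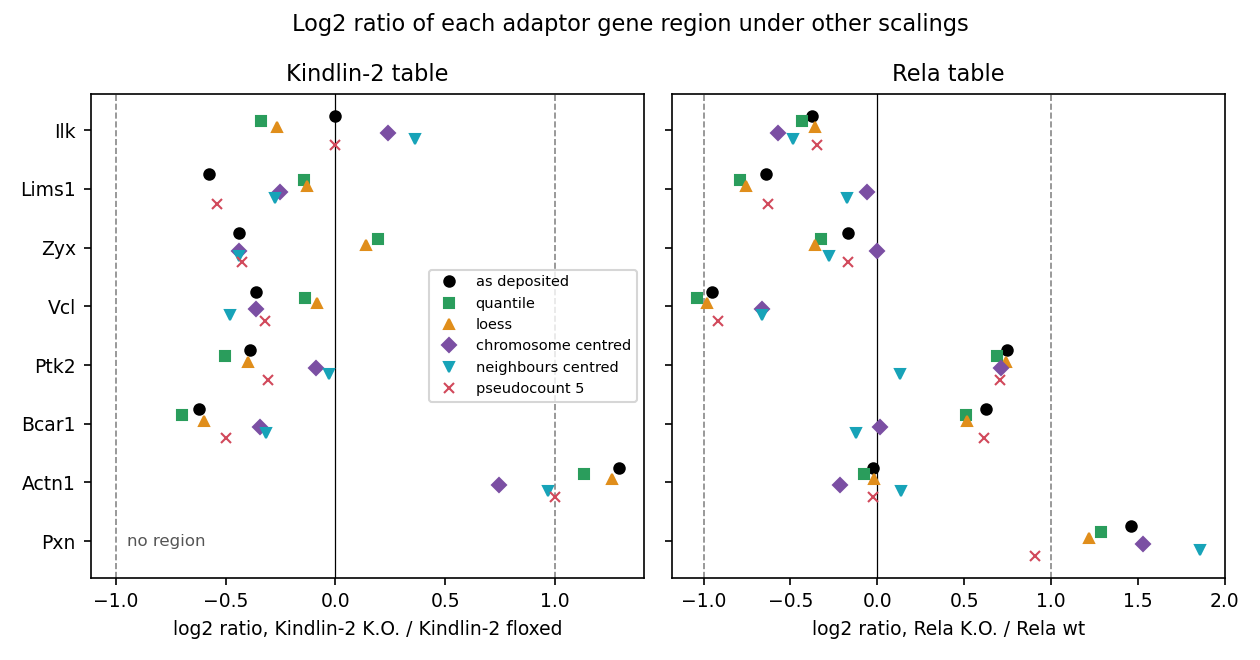
Log2 ratio of each adaptor gene region as deposited and under 5 other settings (symbols), with dashed lines at 2-fold. In the Rela table either centring moves Bcar1 and Lims1 towards 0, and centring on neighbours moves Ptk2 (0.13) but centring on chromosomes does not (0.71). Centring brings Actn1 to 0.742 or 0.968 in the Kindlin-2 table, while Vcl in the Rela table stays between -1.04 and -0.67.

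Set side by side, the pairs differed gene by gene. The Actn1 promoter had a ratio of 2.63 in the Kindlin-2 pair and 0.982 in the Rela pair. The Ptk2 promoter had 0.750 in the Kindlin-2 pair and 1.69 in the Rela pair, and the Bcar1 region 0.632 in the Kindlin-2 pair and 1.55 in the Rela pair. For both genes the Kindlin-2 interval spans 1, and with neighbours centred the log2 ratios were -0.03 (Kindlin-2) and 0.13 (Rela) for Ptk2, and -0.32 (Kindlin-2) and -0.12 (Rela) for Bcar1. Lims1, Zyx and Vcl had ratios below 1 in both pairs as deposited, Zyx not so after loess or quantile scaling of the Kindlin-2 pair. The Kindlin-2 intervals of these genes all reach past 1, as does the Rela interval of Zyx. With chromosomes centred in the Rela pair, the log2 ratios were 0.001 for Zyx, -0.06 for Lims1 and -0.67 for Vcl. The pairs differ in cell type as well as in the deleted gene, and the difference between them was not tested.

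The wider adhesion machinery was described by 5 lists holding 112 other genes. In the Kindlin-2 table, regions were assigned to 12 of them, all at promoters, and 2 of the 12 were past 2-fold upward and 0 downward, against 9.06% and 10.6% of all promoter regions. Their median log2 ratio was 0.11, against -0.15 over all promoter regions. Both of the higher ones were among the 3 promoters of kindlins, talins and integrin subunits. Fermt1, the kindlin-1 gene, held 28 in Kindlin-2 K.O. and 4 in floxed cells, a ratio of 7 with a wide interval (2.12 to 35.2). Its floxed value lies below 4.08, the signal of 3 implied counts in that column. The integrin gene Itgb8 held 31 in Kindlin-2 K.O. and 10 in floxed cells (ratio 3.1, 1.41 to 8.75). The 2 promoters of ILK partners, 2 of scaffolds and LIM proteins, 3 of kinases, phosphatases and GTPase regulators and 2 of actin linkage lay within 2-fold, with log2 ratios from -0.72 to 0.58. Itgb8 lies on chromosome 12, as Actn1 does, where the median log2 ratio was 0.55. With chromosomes centred, Itgb8 had 0.993 and 1 promoter of the ILK partners passed. After loess or quantile scaling, 1 promoter of the scaffolds and LIM proteins was lower.

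For the Rela table, 55 of the 112 genes had a region and 47 had one at a promoter, with 49 promoter regions in all. Of these, 3 were past 2-fold upward and 9 downward, against 13.0% and 13.1% of all promoter regions, a share against which the counts per list below are also to be read. They had a median log2 ratio of -0.11 against -0.03 over all promoter regions. Among kindlins, talins and integrins 2 of 7 were lower, Itga1 (30 in Rela K.O., 147 in wild type) and Itga7 (9 in Rela K.O., 42 in wild type).

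Scaffolds and LIM proteins went both ways, with 2 of 13 higher and 2 lower. Crk, whose product binds phosphorylated p130Cas and paxillin, held 42 in Rela K.O. and 19 in wild type at one promoter region, while its other promoter region held 20 in Rela K.O. and 31 in wild type. The related gene Crkl held 35 in Rela K.O. and 72 in wild type, and the LIM gene Ldb3 held 13 in Rela K.O. and 32 in wild type.

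Among kinases, phosphatases and GTPase regulators 3 of 12 were lower. These included the SRC-family kinase gene Fyn (27 in Rela K.O., 63 in wild type) and 1 of 2 promoter regions of the phosphatase gene Ptpn12 (16 in Rela K.O., 37 in wild type), the other being within 2-fold (117 in Rela K.O., 121 in wild type). Among actin linkage genes 1 of 15 was higher, the formin gene Diaph1 (60 in Rela K.O., 29 in wild type). The caldesmon gene Cald1 (42 in Rela K.O., 105 in wild type) and the supervillin gene Svil (1 in Rela K.O., 8 in wild type) were lower. Svil rests on few counts, with a ratio of 0.125 (0.00271 to 0.783). Its Rela K.O. value lies below 2.85, the signal of 3 implied counts in that column. Neither of the 2 promoters of ILK partners passed. Under the 4 other scalings 2 to 3 of the 49 were higher and 8 to 9 lower, but not the same ones throughout. Crk, Diaph1 and Fyn lay within 2-fold with chromosomes or neighbours centred, Ldb3 with chromosomes centred, Crkl and Cald1 with neighbours centred, and Diaph1 after quantile scaling, while 1 of the 7 promoters of kindlins, talins and integrins passed upward under either centring.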

How the data were processed

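Per the submitters' processing notes, which give no roles or order, the authors' tools were bedtools, deepTools, DESeq2, FastQC, MACS2, Picard 1.136, STAR 2.4.2a and Trimmomatic 0.33, with mm10 as the build. Per the labels, 50000 cells entered each library. The handling of the transposase shift and of duplicates is not given in the sources used here, nor is the way 2 biological replicates became 1 column. Each deposited value is a score: a signal corrected for background, scaled by the DESeq method as the labels name it, and rounded to a whole number by the authors. The distance from region to start is also the authors'. Region positions are printed as the tables have them, with no statement there of counting from 0 or 1.

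Regions with a mean of both columns of at least 1 entered, with a pseudocount of 1 on the log2 scale and a 2-fold limit. With 1 column per genotype the planned limma fit was not possible, so ratios are descriptions. Some whole values were too rare or too frequent, as a count times a fixed factor leaves them. Factors of 1.36 (Kindlin-2 floxed), 0.683 (Rela wt) and 0.949 (Rela K.O.) explained 92.1% or more of the deviance. For the Kindlin-2 K.O. the best factor, 0.444, explained 14.7%, and 1 was used. Counts so implied gave exact (Clopper-Pearson) 95% intervals, which leave out any error of the background correction. A median region rested on 11.8 (floxed), 36.9 (Rela K.O.) and 49.8 (wild type) implied counts, and on 16 in the Kindlin-2 K.O. at the assumed factor of 1. The steps were tested on simulated whole counts times known factors. That setting does not cover a column without a clear count scale, as in the Kindlin-2 K.O., or the background correction. Quantile and loess (span 0.3) scaling, centring on the whole table, on chromosomes or on the 50 regions to each side, other pseudocounts, filters and fold limits were tried as alternatives. Python 3.11.15, numpy 2.4.6, pandas 2.3.3, scipy 1.17.1 and statsmodels 0.14.6 were used. Named genes were every region of the 8 members, the region nearest to each side, and up to 4 promoters past 2-fold per wider list, of which 2 are not reported here. The members and lists were chosen with earlier results of these data known.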

Additional observations from a re-analysis of the deposited data

How the results depend on the processing

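No paired analysis was possible because each genotype has 1 column and the columns carry no replicate numbers, and for the same reason no replicate could be left out. Of the 7 Kindlin-2 member regions, 1 was at least 2-fold higher as deposited and 0 with chromosomes or neighbours centred or at a 3-fold limit, and 1 was lower at a 1.5-fold limit (0 as deposited). With the weakly fitted scale for the Kindlin-2 K.O., an alternative chosen after seeing the data, 3 in place of 1 of the members' intervals excluded 1. The share of all regions was not computed at that scale. Of the 8 Rela member regions, 1 was higher as deposited, 0 with a pseudocount of 5, with a mean of at least 10 (which drops Pxn) or at 3-fold, and 3 at 1.5-fold. Lower were 0 as deposited, 1 after quantile scaling (Vcl, -1.04) and 2 at 1.5-fold. The 1.5-fold counts are to be read against all 28332 Rela regions, of which 8813 were higher and 8843 lower at that limit. Among all Kindlin-2 regions, 925 were higher and 531 lower as deposited. These were 543 and 335 with a pseudocount of 5, 1524 and 1246 at 1.5-fold, and 446 and 149 at 3-fold, and 387 were higher with a mean of at least 10, 573 after quantile and 450 after loess scaling. Among all Rela regions, 4153 were higher and 3308 lower at 3-fold, against 6340 and 5939 at 2-fold. Of the 89 counts, 67 stayed within 1.5 times, and these include counts that could not change. Centring on a whole-table median of 0 leaves every count as it was, as does dropping the filter in the Kindlin-2 table. Of the single members' log2 ratios under the alternatives, 126 stayed within the counting interval and 8 did not: Zyx in both tables and Bcar1, Lims1 and Ptk2 in the Rela table. The 126 include values that could not change. Dropping the filter, asking for a mean of at least 10 or centring on a whole-table median of 0 leaves a single ratio as it was. The Pxn log2 ratio of 1.46 was 0.91 with a pseudocount of 5. Depth limits the weakest values. In the Kindlin-2 table Actn1 rests on 21 in the knockout, taken at 1 count per unit, and on 6 implied counts in floxed cells. In the Rela table Pxn rests on 11 implied counts in the knockout and 4 in wild type.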

Other observations

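Regions inside the members' RefSeq gene bodies (GRCm38.p6) that the tables give to no named gene lie outside the rule and are listed here as values, chosen after they were seen. The Rela table held 22 of them, of which 2 were past 2-fold upward in the knockout and 5 downward, against 22.4% upward and 21.0% downward of all Rela regions, so the count of lower ones is near that background. Both higher ones lay in Bcar1, whose gene body held 5. Their log2 ratios of 2.98 and 1.20 were not centred. The median was 0.61 on chromosome 8 and 0.75 over the 50 regions on each side of the named Bcar1 region. The region at 111716597 to 111717327 on chromosome 8 held 94 in Rela K.O. and 11 in wild-type cells, a ratio of 8.55 (5.04 to 15.6), and the one at 111714435 to 111714702 held 22 in Rela K.O. and 9 in wild-type cells. A further Bcar1 region, at 111731885 to 111734855, spans the second RefSeq promoter window of the gene and held 157 in Rela K.O. and 172 in wild-type cells (ratio 0.913, 0.743 to 1.11).

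The lower ones were single regions of 5 genes. The region in Pxn at 115534994 to 115535269 on chromosome 5 held 11 in Rela K.O. and 42 in wild-type cells (ratio 0.262, 0.134 to 0.513), while the region named Pxn, upstream of it, was higher in the knockout. Also lower were regions in Zyx (7 in Rela K.O., 22 in wild type), Vcl (9 in Rela K.O., 24 in wild type), Actn1 (14 in Rela K.O., 36 in wild type) and Ptk2 (13 in Rela K.O., 29 in wild type). Those in Pxn, Zyx and Actn1 were already counted above among the regions next to the members. The Ptk2 gene body held 7 such regions, with log2 ratios between -1.10 and 0.94, so they differed in both directions within the gene.

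In the Kindlin-2 table there were 2 such regions, both within 2-fold. One, on chromosome 5 (115491974 to 115492151), lies with its centre 92 bp past the start that RefSeq gives to Pxn but is assigned to a processed pseudogene. It held 16 in Kindlin-2 K.O. and 20 in floxed cells, a log2 ratio of -0.30 (interval of the ratio 0.363 to 1.70). The other, in Bcar1 (111726304 to 111726642 on chromosome 8), held 16 in Kindlin-2 K.O. and 30 in floxed cells (ratio 0.533, 0.262 to 1.07).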
